A study of Mus musculus with 15 samples.

Results

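The early uterine response to estradiol (E2) was read from 6 of the 15 arrays of the series, 3 from mice collected 2 hr after E2 and 3 from mice given saline vehicle. Members were chosen by the sample labels alone. The E2 2 hr mice were labeled WT for *Esr1*, the gene of estrogen receptor α (ERα), and carried the strain label C57bl6/Jx129. The saline mice were labeled C57bl6/J with no *Esr1* genotype. All were adult females of at least 10 weeks that had been ovariectomized and rested for 10 to 14 days. Each received an intraperitoneal injection of 100 µL, either saline or 250 ng E2 in saline. The saline uteri were collected at 24 hr, and no saline array at 2 hr was analysed here, so time after injection differs between the groups along with the hormone. The deposited design describes single uteri on separate arrays, whereas the methods describe pooled tissue. Another group of 3 arrays, 250 ng estriol (E3) at 2 hr in C57bl6/J mice, was compared with the same saline arrays, and its list counts and the changes of some genes, picked after their values were seen, are set beside those of E2. Both sets of changes share their control arrays.

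Estrogens act in the uterus mainly through ERα, a ligand-activated transcription factor in epithelium, stroma, and muscle. ERα binds estrogen response elements in DNA, or is held at DNA by other factors such as AP-1 and Sp1. Within hours the ovariectomized uterus takes up water, opens its vessels, and turns on immediate early genes. Protein synthesis and the division of epithelial cells follow later.

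Signal was similar on the 6 arrays, with 79.6% to 81.2% of probes well above background. The E2 2 hr arrays were read on another scanner and day from all the other arrays, E2 2 hr array 1 lay on 1 slide and arrays 2 and 3 on another, and no slide held both groups. Strain label, slide, scanner, and collection time therefore cannot be told apart from E2. Markers of uterine tissue were present in both groups: *Acta2* of smooth muscle (6.49 to 6.59 with E2, 6.26 to 6.6 with saline), *Krt8* of epithelium (3.55 to 4.02 and 4.15 to 4.44), and *Vim* of stroma (4.14 to 4.68 and 4.44 to 4.80) were bright on every array. These levels, like all below, are log2 processed intensities minus the log2 of the 75th percentile of the array, so a level of 0 marks a spot brighter than 75% of all spots. The saline arrays also carried liver transcripts. *Alb1*, the serum albumin gene, stood at 3.38, 1.90, and 1.54 on saline arrays 1 to 3. It stood at -6.81, -10.20, and -8.11 on the E2 2 hr arrays, where 1 of 3 values was above background. Saline was not alone in this. The mean *Alb1* level was 0.27 with E3 at 2 hr, -3.23 with E2 at 24 hr, and -2.63 with E3 at 24 hr. The E2 2 hr mean was the lowest of the 5 groups. Liver transcripts were set aside from the account of repressed genes and are described at the end.

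Across the array, 7384 of 34766 probes tested (21.2%) passed p below 0.001 with at least a 2-fold change in limma, 3675 upward and 3709 downward. By the brightest probe of each gene, 1220 of 13990 genes rose (8.72%) and 1290 fell (9.22%). These shares are the background for the counts of list members, as is the median change of -0.08 over all probes tested. On 65.8% of genes the 3 E2 2 hr arrays did not overlap the 3 saline arrays, so a lack of overlap by itself was common. Under normexp background correction 3785 probes were called (5.48% up, 5.41% down), or 6.28% of genes up and 6.13% down. For E3 at 2 hr, 4.68% of probes rose and 9.11% fell, or 4.94% of genes up and 5.62% down. Members of 34 lists of genes with a shared function had more calls upward than downward, 173 against 73 of 748 genes tested. Lists and members were chosen with earlier results of these data known, so their shares beside the background are not independent evidence. The chart of called members shows how the lists differed. With E3 134 of these 748 genes rose and 60 fell.

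**Figure D1:**
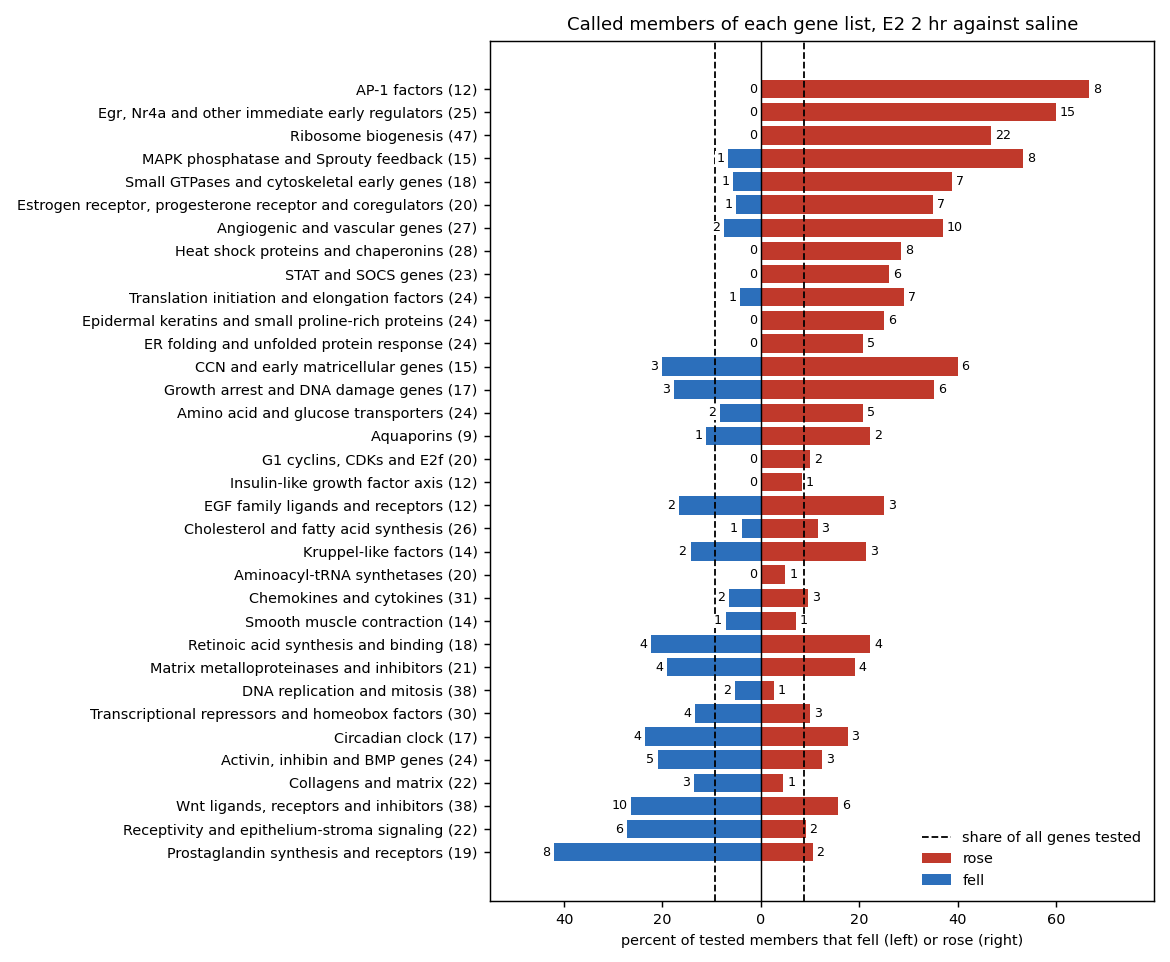
Share of the tested members of each gene list that rose (red, right) or fell (blue, left) with E2 at 2 hr against saline; the horizontal axis is in percent, the numbers at the bars count genes, numbers tested are in parentheses, and dashed lines mark the 8.72% and 9.22% of all genes. AP-1 factors stand at the top with 8 of 12 up, and prostaglandin genes at the bottom with 8 of 19 down. The lists were chosen with earlier results of these data known.

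Most of the AP-1 and Egr family genes tested rose. The AP-1 list, whose proteins pair through leucine zippers and bind the sequence TGACTCA, had 8 of 12 members up and 0 down (median 2.21), and 8 up with E3. *Fos* stood at 3.67, 3.22, and 2.86 on E2 2 hr arrays 1 to 3 and at -2.70, -2.52, and -2.24 on saline. The groups lay far apart, with a change of 5.74 ± 0.23 on the log2 scale (SE, n = 3 per group, limma adjusted p = 4.4e-09). *Fosl1*, a partner of Jun proteins, rose from a dim level (-7.25 to -6.96) to between -2.37 and -1.73, a change of 5.0 ± 0.21. The small Maf protein *Maff* (3.25), *Fosb* (2.88), *Atf3* (2.62), *Junb* (2.33), *Fosl2* (2.09), and *Jund1* (1.81) made up the rest. *Jun* itself changed by 0.88 ± 0.10 and did not reach 2-fold.

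Among 25 Egr, Nr4a, and other early regulators, 15 rose and 0 fell (median 1.77), and 14 rose and 1 fell with E3. *Egr3* rose by 4.66 ± 0.39 by its brighter probe, although its other probe changed by 0.32. Outside the list, its relative *Egr4* was among the largest rises of the array, with E2 levels of 0.38, -1.45, and -1.51 against -7.10, -6.40, and -7.05 on saline (change 5.99 ± 0.50, limma adjusted p = 7.69e-07). *Egr1*, the best known of the family, rose by 2.32 ± 0.21. The orphan nuclear receptor *Nr4a1* stood at 6.37, 4.96, and 4.92 with E2 and between 1.44 and 1.53 with saline (change 3.92 ± 0.30, limma adjusted p = 3.76e-07). Its relative *Nr4a2* rose by 2.21, and *Nr4a3* was not well above background on any saline array, where its rise was at least 1.48-fold, with no call under normexp. *Nfil3* (2.99), *Ier2* (2.95), *Axud1* (2.45), *Ier3* (2.37), the mRNA-destabilizing *Zfp36* (2.27), *Btg2* (2.04), *Bhlhb2* (1.77), *Id1* (1.71), and *Srf* (1.56), the serum response factor, also rose, and *Maff* is in both lists. *Myc* changed by 0.80 ± 0.13, short of 2-fold.

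E2 2 hr array 1 was the highest of its group for 7 of the 8 AP-1 genes that rose and for 12 of the 15 early regulators. Over all genes that rose with 3 values, it was the highest for 244 of 1209 and the lowest for 772. That array lay on a slide of its own among the 3, and what part the slide has in this order was not tested. Kruppel-like factors were mixed, with 3 of 14 up and 2 down. *Klf4* (1.75), *Klf2* (1.60), and *Klf16* (1.45) rose, and *Klf15* (-1.92) and *Tieg3* (-1.4, and -0.60 with no call on its other probe) fell. For *Klf2* the change with E3 at 2 hr was 0.01.

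Some genes that restrain growth factor signals rose. Of 15 MAPK phosphatases and Sprouty genes 8 rose and 1 fell (median 1.02). *Errfi1*, an inhibitor of the EGF receptor kinase, stood at 5.98, 5.2, and 5.23 against 1.59, 1.74, and 1.65 on saline (change 3.81 ± 0.17, limma adjusted p = 9.57e-09). *Spry4* rose by 4.72 ± 0.32, *Dusp8* by 3.18 ± 0.24, and *Dusp1*, the phosphatase of p38, JNK, and ERK, by 2.40 ± 0.24. Smaller rises were seen for *Spry2*, *Dusp2*, *Dusp6*, and *Dusp16* (1.02 to 1.63), while *Spry1* fell by 1.14. Growth arrest genes split, with 6 of 17 up and 3 down. The stress-responsive TGF-β relative *Gdf15* went from between -3.09 and -2.19 to between 3.33 and 3.82, a change of 6.15 ± 0.24. *Gadd45g* lay at 7.09, 7.13, and 7.19 with E2 against 2.94, 2.90, and 2.64 (change 4.31 ± 0.10, limma adjusted p = 1.78e-10). The cyclin-dependent kinase inhibitor *Cdkn1a* rose by 2.63 ± 0.16, *Gadd45a* by 2.27, and *Gadd45b* by 2.01. *Sesn1* (-2.43), *Ccng2* (-1.55), and *Cdkn2c* (-1.30) fell, whereas *Sesn2* rose by 1.59.

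Of 12 early transcripts that the study had picked out for RT-PCR, 11 rose here by their brightest probes, from 2.43 for *Stat5a* to 5.74 for *Fos* (median 3.92), and 11 rose with E3. The other, *Sox8*, a transcription factor gene that was first left off the list and added after its values were seen, stood at -5.10, -4.61, and -3.92 with E2 and at -5.15, -5.59, and -5.25 with saline. Its change of 0.79 ± 0.28 was not called, while its dimmer probe was called at 2.26 ± 0.25 but not with normexp. The study took these transcripts from its own earlier work on responses to E2, where *Sox8* rose in mutant and not in WT uteri. The counts are thus not independent evidence. Besides those already given they include *Inhbb*, *Cyr61*, *Ppp2r2c*, *Mad2l1*, and *Wnt4*, described below.

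Promoters of early genes that rose are shown as reference sequence, since these arrays measured transcripts and no binding. The windows are the 250 bases before the RefSeq start on build GRCm38.p6, 5′ to 3′ on the strand of the gene, and capitals mark an AP-1 site (TGACTCA or its reverse complement), a cyclic AMP response element (TGACGTCA), or a CArG box, the element that serum response factor binds. Genes were picked after a search of both strands because they rose and hold 1 of these motifs. The windows are chr17:17855189-17855438 on the minus strand for *Has1*, chr17:26508473-26508722 (minus) for *Dusp1*, chr4:150854820-150855069 (plus, 1 of 2 listed starts) for *Errfi1*, chr7:4778142-4778391 (minus, 1 of 2 listed starts) for *Il11*, chr7:24462233-24462482 (plus) for *Plaur*, chr17:46556163-46556412 (minus) for *Srf*, and chr7:28379229-28379478 (minus) for *Zfp36*.
Has1: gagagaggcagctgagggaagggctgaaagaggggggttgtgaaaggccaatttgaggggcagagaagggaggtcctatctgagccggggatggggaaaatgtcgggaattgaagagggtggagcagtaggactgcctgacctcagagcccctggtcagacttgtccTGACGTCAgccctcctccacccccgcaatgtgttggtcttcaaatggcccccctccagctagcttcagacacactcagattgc
Dusp1: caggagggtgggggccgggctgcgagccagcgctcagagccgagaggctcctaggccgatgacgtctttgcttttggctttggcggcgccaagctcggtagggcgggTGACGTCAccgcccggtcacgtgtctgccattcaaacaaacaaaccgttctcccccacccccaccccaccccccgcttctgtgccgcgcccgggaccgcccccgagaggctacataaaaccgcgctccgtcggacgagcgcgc
Errfi1: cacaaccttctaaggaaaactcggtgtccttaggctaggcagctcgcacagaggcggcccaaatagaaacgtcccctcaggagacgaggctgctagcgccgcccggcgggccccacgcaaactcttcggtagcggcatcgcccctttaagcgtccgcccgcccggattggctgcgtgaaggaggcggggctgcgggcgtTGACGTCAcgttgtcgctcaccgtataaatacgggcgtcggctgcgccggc
Il11: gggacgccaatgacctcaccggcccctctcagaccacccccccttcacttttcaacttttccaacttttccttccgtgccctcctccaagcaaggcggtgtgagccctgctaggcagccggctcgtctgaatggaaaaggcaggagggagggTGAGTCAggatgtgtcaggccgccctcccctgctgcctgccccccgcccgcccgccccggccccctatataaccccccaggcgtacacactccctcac
Plaur: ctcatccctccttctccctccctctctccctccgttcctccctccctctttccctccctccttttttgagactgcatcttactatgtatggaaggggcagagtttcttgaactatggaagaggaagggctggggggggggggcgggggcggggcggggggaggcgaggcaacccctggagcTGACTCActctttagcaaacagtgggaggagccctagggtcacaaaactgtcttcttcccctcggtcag
Srf: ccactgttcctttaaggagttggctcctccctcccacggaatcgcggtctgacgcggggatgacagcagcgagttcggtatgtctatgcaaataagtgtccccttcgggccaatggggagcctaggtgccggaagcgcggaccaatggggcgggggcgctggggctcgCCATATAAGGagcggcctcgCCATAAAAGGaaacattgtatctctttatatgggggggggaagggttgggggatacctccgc
Zfp36: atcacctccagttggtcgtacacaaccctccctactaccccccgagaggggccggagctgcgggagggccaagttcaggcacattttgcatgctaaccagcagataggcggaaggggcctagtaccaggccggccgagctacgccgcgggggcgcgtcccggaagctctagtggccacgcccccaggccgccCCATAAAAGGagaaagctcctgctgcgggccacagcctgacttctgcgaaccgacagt
Relative to the start, the cyclic AMP response element begins at -83 in *Has1*, -143 in *Dusp1*, and -51 in *Errfi1*. The AP-1 site begins at -98 in *Il11* and -69 in *Plaur*, and the CArG boxes at -82 and -62 in *Srf* and -58 in *Zfp36*.

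Among all 32851 windows of this length, 4.46% held TGACTCA, 1.55% TGACGTCA, 1.47% a CArG box, 32.7% the Sp1 box GGGCGG, and 0.0639% the full estrogen response element (GGTCA and TGACC with 3 bases between). Of the genes tested, 10696 matched, by current or array symbol, 10688 RefSeq genes with a window. Among the windows of all genes tested the shares were 3.73%, 2.19%, 1.32%, 50.8%, and 0.0221% in the same order. In windows of genes that rose, the shares were 3.54% for TGACTCA, 3.54% for TGACGTCA, 1.26% for the CArG box, and 56.7% for GGGCGG. In windows of genes that fell they were 5.19%, 0.568%, 1.06%, and 45.5%. TGACGTCA was thus found in 42 of 1188 windows of risen genes, 7 of 1232 windows of fallen genes, and 297 of 13565 windows of all genes tested. The full estrogen response element was in 0 windows of either called group and 3 of all genes tested. These shares were not tested.

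Of 20 genes for steroid receptors, their coregulators, and related targets 7 rose and 1 fell (median 0.45), against 4 and 1 with E3. *Greb1*, an estrogen-induced cofactor of ERα, stood at 2.80, 3.21, and 3.32 with E2 and at -1.31, -1.36, and -1.51 with saline (change 4.51 ± 0.17, limma adjusted p = 3.86e-09). The progesterone receptor *Pgr* lay at 0.60, 0.37, and 0.36 against -1.91, -2.17, and -1.92, and neither group reached the other. Its change was 2.44 ± 0.11, and 4.43 by its second, dimmer probe. The corepressor *Nrip1* rose by 2.20 ± 0.12 on its brightest probe and by 2.41 and 2.86 on the others. Rises near 2-fold were called for *Crebbp*, *Pparbp*, and *Fkbp4* (1.01 to 1.27). The changes of *Crebbp* and *Pparbp* with E3 were -0.01 and 0.10, and their other probes changed by as little as -0.05 and 0.36 with E2. Levels of *Esr1* itself changed by 0.36 ± 0.14, short of 2-fold. *Gpr30*, a membrane protein that binds estrogen, fell by 2.32 ± 0.18.

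Of 12 EGF family ligands and receptors 3 rose and 2 fell. *Hbegf*, a ligand of the EGF receptor, stood at 3.30, 2.79, and 3.15 against 0.12, -0.05, and 0.17 (change 3.00 ± 0.15, limma adjusted p = 1.62e-08). *Nrg1* rose by 2.33 ± 0.20. The receptor *Erbb3* (-1.14, and -0.28 to -1.23 on other probes) and the ligand *Btc* (-1.05) fell, and *Erbb4* rose by 1.09 on its brighter probe and changed by -0.03 on the other. *Igf1*, a growth factor made by the stroma, stood between 2.11 and 2.38 with E2 and between 1.03 and 1.26 with saline. Its rise of 1.07 ± 0.10 was the only call among 12 genes of the IGF axis, and with quantile normalization it was 0.99 and not called. Its other probes were called with rises of 2.52 and 1.16. *Inhbb*, the βB subunit shared by activin B and inhibin B, was among the brightest early genes at 6.24, 6.35, and 6.28 against 1.86, 1.55, and 1.71. It rose by 4.58 ± 0.13 (limma adjusted p = 9.54e-10), while *Inha*, the α subunit that only inhibins contain, fell by 2.58 ± 0.23 (-1.12 on its other probe). Within the 24 activin and BMP genes 3 rose and 5 fell. The ligand *Bmp8a* (4.91) and the inhibitory *Smad7* (2.08, and 0.51 with E3) rose, and *Lefty1* (-1.62), the receptor *Acvr2b* (-1.52), *Bmp2* (-1.24), and the decoy receptor *Bambi* (-1.04) fell. *Btc*, *Bmp2*, and *Bambi* lost their calls with normexp.

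The Wnt list had 6 of 38 genes up and 10 down (median -0.31). *Wnt4* stood at 1.92, 2.93, and 2.67 against 0.12, -0.49, and -0.20, a rise of 2.70 ± 0.23 (limma adjusted p = 9.87e-07). The ligands *Wnt9a* (2.02), *Wnt7b* (1.63), and *Wnt5b* (1.20) also rose, whereas *Wnt6* (-1.25) and *Wnt5a* (-1.19) fell. Every called Frizzled receptor fell, namely *Fzd1* (-2.23), *Fzd10* (-1.82), *Fzd2* (-1.35, and -1.86 ± 0.48 with no call on its other probe), and *Fzd7* (-1.14, and -0.24 on its other probe). In the whole list 22 of 38 genes were not called. *Lgr5*, the R-spondin receptor, fell by 2.25 ± 0.24, as did the inhibitors *Nkd2* (-1.82), *Dkk2* (-1.55), and *Sfrp1* (-1.05, and -0.80 with no call on its other probe). The inhibitor *Dkk1* was not above background on any saline array, and it was at least 1.52-fold higher with E2, with no call under normexp. The member with the largest change, *Ppp2r2c*, encodes a regulatory subunit of protein phosphatase 2A and not a Wnt component in the narrow sense. It rose by 4.17 ± 0.32. *Axin2*, a feedback target of the pathway, stood between 2.87 and 3.06 with E2 and between 0.91 and 0.99 with saline, but its change of 2.02 had an SE of 1.22 in the fit across all 15 arrays and was not called. *Rspo3*, a ligand of *Lgr5* outside the list, fell from between -0.36 and 0.04 to between -4.44 and -3.02, a change of -3.61 ± 0.28.

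**Figure D2:**
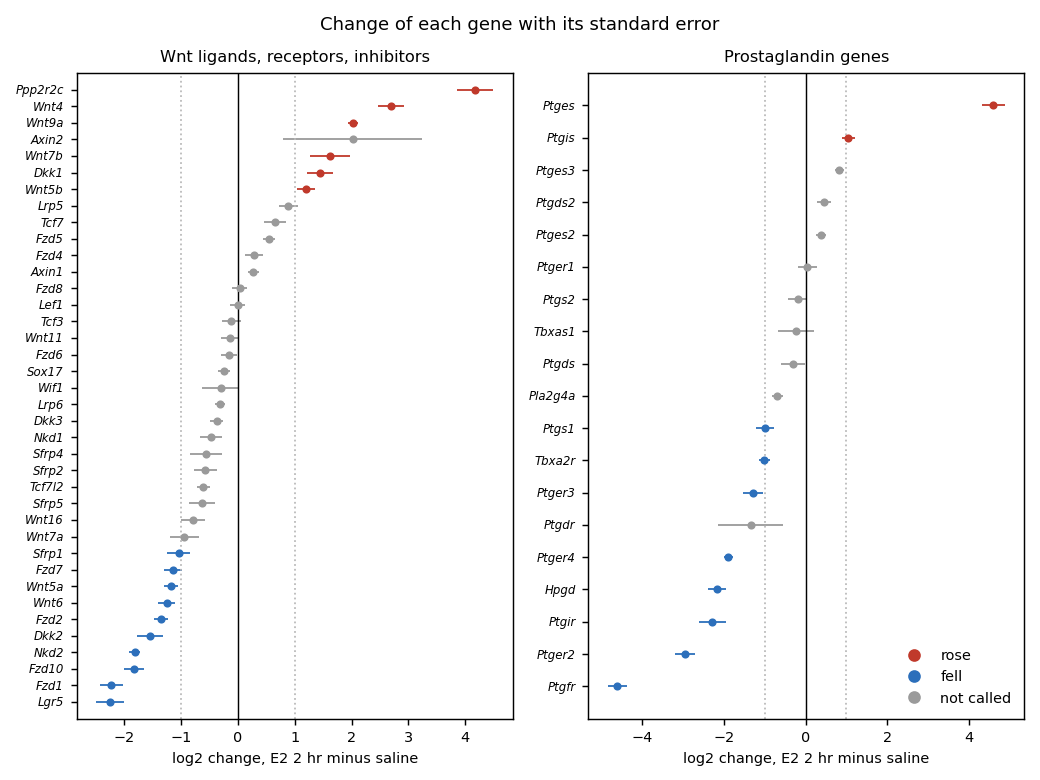
Log2 change from saline to E2 at 2 hr (horizontal axis) for each tested gene of the Wnt list and the prostaglandin list; points are limma estimates, bars are 1 SE, n = 3 arrays per group, colors give the call, and dotted lines mark 2-fold. *Ptgfr* lies at -4.61 and *Ptges* at 4.6 in the same panel.

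Inhibitors of cytokine signaling were among the genes that rose. Of 23 STAT and SOCS genes 6 rose and 0 fell (median 0.68). *Socs1* stood at 4.33, 4.71, and 4.64 against 0.69, 1.06, and 0.59 (change 3.78 ± 0.18, limma adjusted p = 1.39e-08). *Socs3* rose by 3.55 ± 0.22 and *Socs2* by 1.94 ± 0.09. All 3 encode proteins that block JAK kinases or their receptors. The kinase *Pim3* (1.59) and the transcription factors *Stat5a* (2.43) and *Stat5b* (1.25, and 1.27 and 0.59 on other probes) made up the others. Of 31 chemokines and cytokines 3 rose and 2 fell. The exception in size was *Il11*, a cytokine needed for decidual growth of the stroma, which went from -4.73, -5.12, and -5.12 on saline to -0.13, 0.57, and 0.20. Its change was 5.2 ± 0.20 (limma adjusted p = 3.87e-09), and 3.08 with E3. *Csf3* rose by 1.81 ± 0.17. *Cxcl16* rose by 1.01 ± 0.23 but changed by 0.35 on its other probe. *Il15*, which natural killer cells require, fell by 2.05 ± 0.32 (-0.54 on its other probe), and *Csf2* by 1.37 ± 0.28, a call that was lost with normexp.

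Of 27 vessel genes 10 rose and 2 fell (median 0.10). *Pgf*, placental growth factor, stood at 1.60, 2.97, and 2.71 against -3.11, -3.08, and -3.39 (change 5.62 ± 0.34, limma adjusted p = 6.88e-08). *Vegfa*, the main vessel growth and permeability factor, lay at 3.79, 4.41, and 4.29 against 1.53, 1.33, and 1.39, a rise of 2.75 ± 0.17 with 2.32 and 2.70 on its other probes. Its receptors *Flt1* (0.10 ± 0.09) and *Kdr* (0.35 ± 0.11) were not called. The vasodilator peptide *Adm* rose by 2.73 ± 0.12, and *Ramp3*, which turns the calcitonin receptor-like receptor into an adrenomedullin receptor, by 4.35 ± 0.21. *Epas1* (2.34), *Apln* (2.15), *Angpt4* (1.61), *Nos3* (1.07), and *Hif1a* (1.02) rose, of which *Angpt4* lost its call with normexp (0.82). *Nrp2* rose by 1.09 on its brighter probe, while its other probe was not well above background on any E2 2 hr array. *Esm1* (-1.61) and *Vegfc* (-1.41) fell. Of the water channels 2 rose. *Aqp5* went from between -0.31 and 0.23 to between 3.99 and 4.77 (change 4.43 ± 0.20), *Aqp8* rose by 4.56 ± 0.30, and *Aqp11* fell by 1.93 ± 0.16, out of 9 aquaporins. The summed level of 9 endothelial markers was 19.4 to 26.6 on the E2 2 hr arrays and 34.6 to 38.1 on the saline arrays in units of the 75th percentile, and 1 of the 9, *Cldn5*, was called, with a fall. Without *Cldn5* the sums overlapped, at 16.4 to 23.0 and 20.7 to 22.1. The defining markers *Pecam1*, *Cdh5*, and *Tek* changed by -0.26, 0.11, and -0.81 with no call. The part of cell makeup in these results was not tested, and in tissue RNA fewer cells of a type and less RNA per cell cannot be told apart.

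Prostaglandin genes had the largest share of falls among the 34 function lists, 8 of 19 against 2 up (median -0.69), with 5 falls and 2 rises for E3, and 6 falls without E2 2 hr array 2 or 3 and 5 with no scaling between arrays. *Ptgfr*, the receptor of prostaglandin F2α, stood at -3.71, -4.83, and -4.64 with E2 and at 0.22, 0.15, and 0.29 with saline. The groups were far apart, with a change of -4.61 ± 0.23 (limma adjusted p = 1.81e-08) and -4.06 on the second probe. Receptors of prostaglandin E2 fell too: *Ptger2* by 2.95 ± 0.24, *Ptger4* by 1.90 ± 0.11, and *Ptger3* by 1.29 ± 0.24. The prostacyclin receptor *Ptgir* fell by 2.29 ± 0.34. The second probes of *Ptger4* (0.54) and *Ptgir* (0.04) did not move down. *Hpgd*, the enzyme that inactivates prostaglandins, fell by 2.17 ± 0.23, and the thromboxane receptor *Tbxa2r* and the cyclooxygenase *Ptgs1* fell by close to 2-fold (-1.01 and -1.0). The other cyclooxygenase, *Ptgs2*, lay between -6.17 and -5.77 on all 6 arrays with a change of -0.19 ± 0.23. *Ptges*, the inducible prostaglandin E synthase, went the opposite way, from -2.24, -2.50, and -2.09 to 1.62, 2.63, and 2.74, a rise of 4.6 ± 0.27 (limma adjusted p = 6.22e-08). *Ptgis*, the prostacyclin synthase, rose by 1.05 ± 0.16. *Ptgis* and *Tbxa2r* lost their calls with normexp. Another contraction receptor, the oxytocin receptor *Oxtr*, stood at 0.27, -0.01, and -0.05 against -3.89, -4.18, and -3.64. It rose by 3.97 ± 0.18 on that probe and by 3.79 on another. The 14 smooth muscle contraction genes had 1 other call, a fall of *Mylk* by 1.16, which its 2 other probes gave as -1.28 and 0.33.

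Matrix genes went both ways. *Has1*, a hyaluronan synthase, stood at 2.35, 1.43, and 1.21 against -4.67, -4.49, and -4.69 (change 6.28 ± 0.22, limma adjusted p = 2.5e-09), whereas *Has2* fell by 2.49 ± 0.40. The integrin ligand *Cyr61* rose by 4.22 ± 0.26, the urokinase gene *Plau* by 3.1 ± 0.20, and its receptor *Plaur* by 2.74 ± 0.20. *Wisp2* rose by 2.38 but was not called with normexp. In that list of 15 matricellular genes 6 rose and 3 fell, the other falls being *Wisp1* (-1.73) and *Tnc* (-1.06, and -0.82 and -0.20 on other probes). Among proteases that cut aggrecan and versican, *Adamts4* went from between -2.81 and -1.77 to between 2.96 and 3.27 (change 5.38 ± 0.22) and *Adamts1*, counted in the matricellular list, rose by 3.05 ± 0.21. *Mmp19* (2.22), *Adamts9* (1.53), and *Adamts2* (1.24) rose as well. *Adamts5* (-1.54), *Mmp11* (-1.26), *Mmp23* (-1.09), and *Mmp15* (-1.02) fell, for 4 of 21 in each direction of the metalloproteinase list. Of 22 collagen and matrix genes 3 fell and 1 rose (median -0.46). *Col3a1* stood at 4.06, 3.48, and 3.57 against 4.89, 4.94, and 4.78 (change -1.17 ± 0.19), and *Col1a2* fell by 1.13 ± 0.14, as did *Lox*, which cross-links collagen, by 1.25. Changes with E3 were -0.39 for *Col3a1* and -0.30 for *Col1a2*. *Col1a2* and *Mmp15* lost their calls with normexp. *Col6a3* rose by 1.76 ± 0.11, with 1.79 and 2.60 on its other probes.

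Of 47 ribosome biogenesis genes 22 rose and 0 fell, with a median change of 0.92, and 41 had an adjusted p under 0.05 and an increase, a rule that 27.5% of all genes met. With E3 16 rose and 0 fell. *Rrs1*, a ribosome assembly factor, stood at 3.08, 3.12, and 3.22 against 0.73, 0.82, and 0.88. The change was 2.33 ± 0.09 (limma adjusted p = 3.57e-09). The RNA helicase *Ddx21* rose by 2.32 ± 0.12. *Rpo1-2*, which encodes the second largest subunit of RNA polymerase I, also rose by 2.32 ± 0.26, and by 0.34 with E3. The box C/D snoRNP proteins *Nol5* (2.06) and *Nol5a* (1.93), nucleostemin *Gnl3* (1.98), *Tsr1* (1.93), and *Utp18* (1.90) followed. The abundant nucleolar proteins *Ncl* (0.33 ± 0.07) and *Npm1* (0.03 ± 0.13) were not called. E2 2 hr array 1 was the lowest of its group for 21 of the 22, the opposite of its place among the AP-1 genes, and without it 22 members still rose.

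Of 24 translation factors 7 rose and 1 fell (median 0.65). *Eif2s2*, a subunit of the factor that brings the initiator tRNA, stood at 4.46, 4.54, and 4.49 against 2.92, 2.95, and 2.81 (change 1.60 ± 0.07, limma adjusted p = 5.93e-09). The helicase *Eif4a1* (1.37), *Eef1e1* (1.36), *Eif4g2* (1.22), *Eif1a* (1.17, and 0.18 and 0.47 on other probes), *Eif3s1* (1.16), and *Eif2s1* (1.06) followed, and *Eif2b3* fell by 1.05. Aminoacyl-tRNA synthetases had 1 call among 20, *Aars* with 1.01 ± 0.17 on its brightest probe and 0.68 to 3.47 on 4 others. Transporters of amino acids and glucose had 5 of 24 up and 2 down. *Slc7a5*, which carries large neutral amino acids, went from -0.11, -0.20, and -0.02 to 3.09, 3.20, and 3.25 (change 3.29 ± 0.10, limma adjusted p = 1.22e-09). The glucose transporters *Slc2a3* (1.52, and 1.65 and -0.35 on other probes) and *Slc2a1* (1.03) and the amino acid transporters *Slc7a1* (1.44) and *Slc7a6* (1.36) rose by less, and only *Slc7a6* of these 4 stayed called with normexp. *Slc6a14* (-1.21) and *Slc1a1* (-1.06) fell. *Eif2b3*, *Aars*, and *Slc6a14* lost their calls with normexp.

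Heat shock genes had 8 of 28 up and 0 down (median 0.78), and 25 met the adjusted p rule with an increase, against the 27.5% of all genes. With E3 4 rose and 0 fell. *Hsp110*, a nucleotide exchange factor for Hsp70, stood at 4.49, 5.16, and 4.47 against 2.56, 2.26, and 2.18 (change 2.37 ± 0.19, limma adjusted p = 5.66e-07). *Hspa4l* (1.71), *Hspa4* (1.65), *Dnajb1* (1.49), *Hspa8* (1.39), *Chordc1* (1.36), *Hspa1a* (1.32), and *Hsp90aa1* (1.17) followed. Other probes of *Hspa8* (0.86), *Chordc1* (0.81), *Hspa4* (0.75), and *Hspa1a* (0.49) were not called, while the remaining probes of *Hspa4* and *Hspa1a* were. The E3 change of *Hspa8* was 0.29. Of 24 genes for folding in the endoplasmic reticulum 5 rose and 0 fell (median 0.52). *Atf4*, the transcription factor of the integrated stress response, rose by 2.43 ± 0.10, the sensor kinase *Ern1* by 2.13 ± 0.16, and *Hspa5*, *Herpud1*, and *Hyou1* by 1.20 to 1.35.

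**Figure D3:**
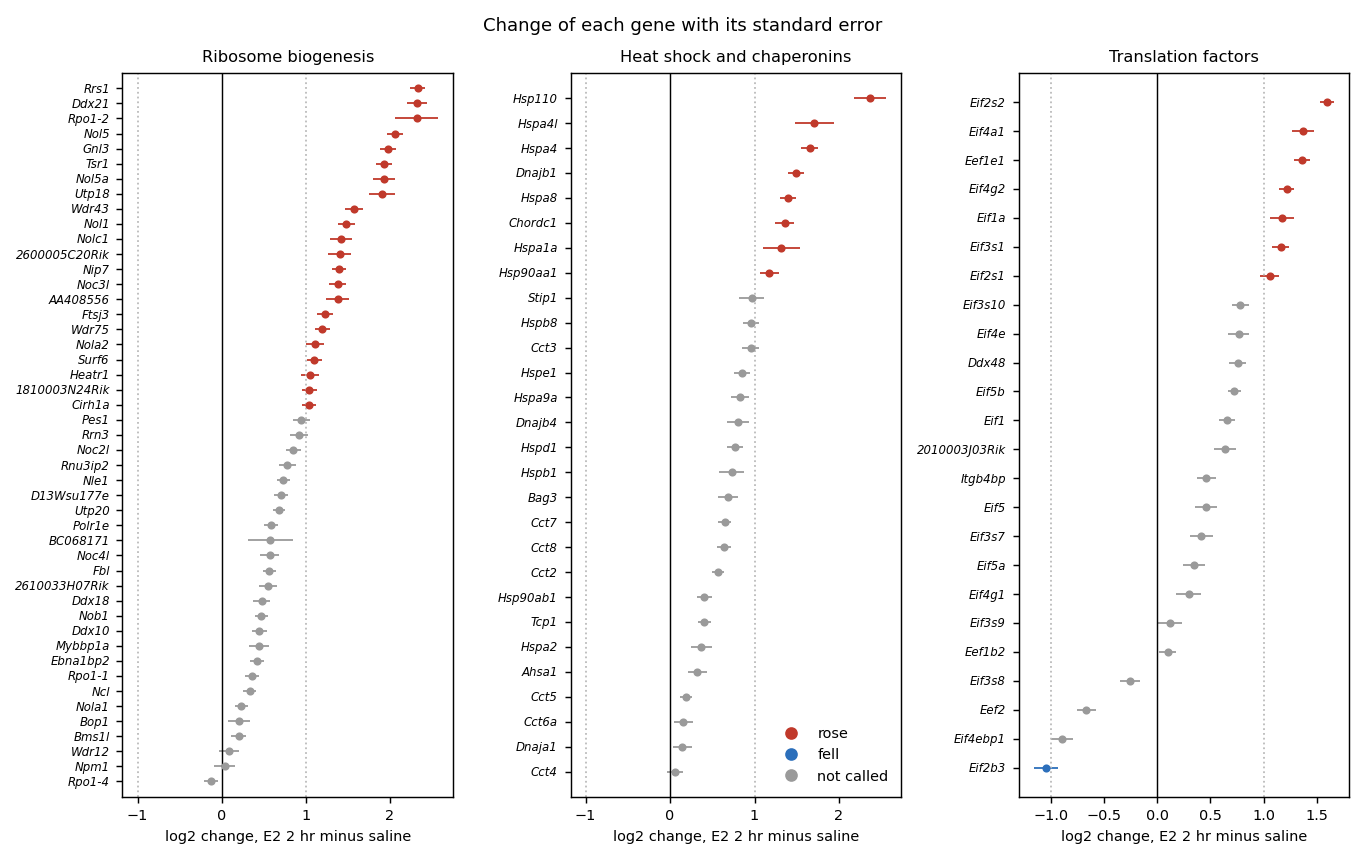
Log2 change from saline to E2 at 2 hr (horizontal axis) for each tested gene of the ribosome biogenesis, heat shock, and translation lists; points are limma estimates, bars are 1 SE, n = 3 arrays per group, and dotted lines mark 2-fold. In the ribosome panel 22 of 47 genes pass 2-fold upward and 0 pass downward.

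Few cell cycle genes were called. DNA replication and mitosis genes had 1 of 38 up and 2 down (median -0.45). The call upward was *Mad2l1*, a spindle checkpoint gene, which stood at 2.63, 2.64, and 2.79 against -1.26, -0.93, and -1.30. It rose by 3.85 ± 0.16 (limma adjusted p = 5.93e-09), and by 3.76 on its second probe. *Bub1b*, another checkpoint gene, fell by 1.19 ± 0.13, with -0.08 under E3, and the polymerase gene *Pold1* fell by 1.08 ± 0.09, a call lost with normexp. The proliferation genes *Mki67* (-0.70 ± 0.43) and *Top2a* (-1.52 ± 0.45) were not called, and both were highest on saline array 2. The same array was high in lymph node transcripts, with *Cd79b* at 2.26 against -0.98 and -0.83 on the other saline arrays. Among 20 G1 cyclin, CDK, and E2f genes *E2f4* (1.68) and *E2f6* (1.67) rose and 0 fell, and *Ccnd1* changed by -0.49 ± 0.12.

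Small GTPases and cytoskeletal early genes had 7 of 18 up and 1 down (median 0.72), against 3 and 1 with E3. *Arc*, an activity-regulated early gene, stood at 2.62, 1.61, and 1.39 against -3.66, -3.16, and -3.56 (change 5.33 ± 0.27, limma adjusted p = 1.83e-08). The atypical GTPases *Rnd1* (3.80 ± 0.28) and *Rhou* (2.78 ± 0.13) rose strongly, and *Rhoc* (1.4), *Rnd3* (1.16), *Tubb2b* (1.13), and *Tubb6* (1.01) by less. Other probes of *Rnd3* (0.66 and 0.56) and *Tubb6* (0.58) were not called. *Rnd2* fell by 1.11. *Tubb6* lost its call with normexp. With E3, *Rnd3* changed by 0.01 and *Tubb2b* by 0.22.

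In lipid metabolism, 3 of 26 cholesterol and fatty acid synthesis genes rose and 1 fell. Among them *Fdft1*, the squalene synthase gene, rose by 1.11 and *Mvk*, the mevalonate kinase gene, fell by 1.08. Retinoic acid genes split 4 up and 4 down of 18. Among enzymes that store or make retinoids, *Lrat* rose by 3.34 ± 0.31, *Dhrs9* by 2.05 ± 0.31, and *Aldh1a2* by 1.87 ± 0.17, as did the receptor *Rara* (1.11). Another receptor, *Rarb* (-1.81), and *Cyp26a1* (-1.16), *Rdh10* (-1.05, and -0.76 with no call on its other probe), and *Stra6* (-1.01) fell. Only *Aldh1a2* of the 4 rises, and *Rarb* and *Rdh10* of the 4 falls, were still called with normexp.

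Of 17 circadian clock genes 3 rose and 4 fell, in groups collected at different times after injection. The output gene *Dbp* stood at 3.03, 2.87, and 2.96 against 5.53, 4.93, and 4.96 (change -2.19 ± 0.18, limma adjusted p = 5.8e-07). *Nr1d1* (-2.15, and -1.33 and -0.53 on other probes), *Hlf* (-1.42), and *Per3* (-1.26) fell with it. *Per2* (1.88), *Cry2* (1.84), and *Gm129* (1.03) rose. The changes with E3 at 2 hr, against the same saline arrays, were -1.41 for *Dbp*, -1.37 for *Nr1d1*, and 1.25 for *Per2*. *Per3* and *Gm129* lost their calls with normexp. The part of collection time in these values was not tested.

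Of 33 Hox genes tested, a set counted after values were seen, 10 fell and 2 rose, *Hoxc4* and *Hoxd1*. With normexp 8 of the falls and 0 of the rises were still called. *Hoxa10*, which patterns the uterus, stood at 1.93, 1.5, and 1.67 against 3.16, 2.92, and 3.08 (change -1.35 ± 0.15, limma adjusted p = 1.29e-05), and *Hoxa11*, its neighbor, fell by 1.15 ± 0.11. *Hoxa9* fell by 2.17 ± 0.10, *Hoxb4* by 1.64 ± 0.14, and *Hoxb5* by 1.21 ± 0.12. In the list of 22 receptivity genes 2 rose and 6 fell (median -0.44). *Nr2f2*, a stromal nuclear receptor also known as COUP-TFII, fell by 1.91 ± 0.15, with -2.06 and -4.07 on its other probes. *Fgf18* (-1.55), the hedgehog receptor *Ptch1* (-1.21), and *Msx1* (-1.14, and -0.75 with no call on its other probe) fell. Of these *Ptch1* lost its call with normexp. *Sox9* (2.79) and *Wt1* (1.34, and 0.13 with E3) rose. Of 30 repressors and homeobox factors 3 rose and 4 fell, the rises being the Notch targets *Hey1* (2.09) and *Heyl* (1.41) and *Bcl6* (1.05), and the fall outside the Hox genes *Tbx2* (-1.13). The summed level of 12 stromal markers was 231 to 262 with E2 and 264 to 318 with saline (115 to 148 and 188 to 205 without *Dcn*). *Nr2f2*, *Hoxa10*, and *Hoxa11* are also among those 12, of which 4 fell and 0 rose (median -0.83). *Vim* (-0.26) and *Pdgfrb* (0.73), the highest of the list, were not called. By adjusted p under 0.05 alone, 9 of the 12 were lower and 1 was higher, while 4641 of all 13990 genes were lower.

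The largest rises of all were hair keratins. *Krt85* stood at 2.80, 3.25, and 3.47 with E2 and at -8.23, -7.33, and -8.12 with saline, close to the lowest level at which any probe was above background (-8.29 to -7.76 by array). Its change was 11.07 ± 0.45 (limma adjusted p = 5.67e-09), and 8.67 with normexp, since a change that starts so low depends on background subtraction. *krt86* rose by 7.55 ± 0.24 and *Krt2-25* by 7.43 ± 0.28. These 3 genes are close relatives, and their probes may read each other's transcripts. Of the 24 keratin and small proline-rich genes 6 rose and 0 fell, the others being *Krt7*, *Krt23*, and *Sprr2b* (1.15 to 1.32). Of these *Krt23* lost its call with normexp, and *Krt7* changed by 0.72 with no call on its other probe.

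Tissue kallikreins, a cluster of closely related serine proteases, followed. *Klk1b5* stood at 2.67, 4.2, and 4.45 against -3.90, -2.40, and -4.0 (change 7.21 ± 0.73, limma adjusted p = 3.76e-06). *Klk1b3* (6.37), *Klk1b8* (5.55), and *Klk1b4* (5.48) rose likewise, as did *Klk1* (7.10), which was counted in the exocrine pancreas list. E2 2 hr array 1 was the lowest of its group for each of them. Their probes may read each other's transcripts, which was not tested. The small GTPase *Rem2* rose by 5.51 ± 0.43, with the value of saline array 2 missing because its spot carried an outlier flag.

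A pair of genes among the 15 largest rises were called with E2 and not with E3. *Myod1*, the muscle determination factor, stood at -0.62 and 1.30 on E2 2 hr arrays 2 and 3, with array 1 missing for an outlier flag, and between -6.57 and -5.99 on saline. It changed by 6.68 ± 0.42 (limma adjusted p = 1.74e-07) with E2 and by -0.15 with E3. *Neud4*, a chromatin protein of neurons, changed by 5.68 ± 0.20 with E2, again without array 1, and by 0.88 with E3. Of 17 skeletal muscle markers 1 rose and 4 fell. *Mylk2*, a myosin light chain kinase gene, stood between -0.15 and -0.03 with E2 and between -5.43 and -5.06 with saline, a rise of 5.2 ± 0.22 (5.19 with E3). *Actn3* (-2.89), *Ckm* (-1.89), *Tnni2* (-1.35), and *Casq1* (-1.33) fell, of which *Ckm* and *Casq1* lost their calls with normexp, and *Acta1* (-0.51) was not called. Compound, strain label, slide, and scanner differ together between the E2 and E3 arrays and cannot be told apart.

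**Figure D4:**
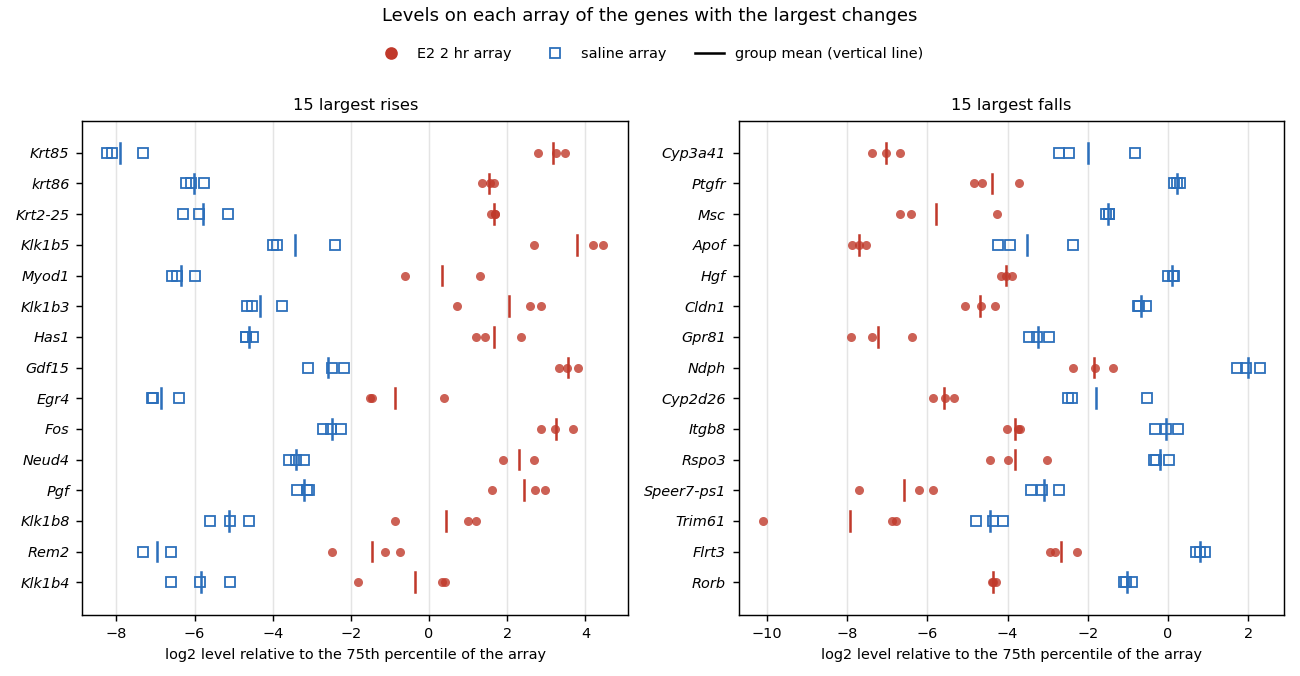
Level of each gene on each array (horizontal axis, log2 intensity relative to the 75th percentile of the array) for the 15 largest rises and the 15 largest falls outside the marker lists; red circles are E2 2 hr arrays, open blue squares are saline arrays, and vertical lines are group means. The rule for naming required no overlap between the groups, and *Cyp3a41*, *Apof*, and *Cyp2d26* have saline array 1 above the other 2.

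The largest falls outside the marker lists included receptors, secreted factors, and transcriptional regulators. After *Ptgfr*, the steepest fall was that of *Msc*, a basic helix-loop-helix repressor, at -4.27, -6.69, and -6.40 against -1.47, -1.48, and -1.54 (change -4.29 ± 0.47, limma adjusted p = 7.59e-06). *Hgf*, a stromal growth factor for epithelium, stood at -3.88, -4.16, and -4.04 against 0.13, 0.16, and 0.01. Its other probes changed by -3.81 to -1.39. The change of -4.13 ± 0.13 had the smallest SE of the 15 (limma adjusted p = 1.34e-09), and E3 changed it by -3.48. The tight junction gene *Cldn1* fell by 4.0 ± 0.22, the lactate receptor *Gpr81* by 3.99 ± 0.30, and *Ndph*, which encodes the Frizzled ligand norrin, by 3.84 ± 0.24. The integrin *Itgb8* (-3.77), the adhesion protein *Flrt3* (-3.48), and the nuclear receptor *Rorb* (-3.34) fell with *Rspo3*. The 2 other probes of *Rorb* changed by -0.60 and 0.09 and were not called. The pseudogene probe *Speer7-ps1* (-3.49, and -0.68 with no call on its other probe), of a multigene family, and *Trim61* (-3.49 ± 0.66) completed the list. *Trim61* had values of -6.89, -6.78, and -10.08 with E2 and lost its call with normexp, as did *Apof*.

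The remaining steep falls, *Cyp3a41* (-5.03), *Apof* (-4.19), and *Cyp2d26* (-3.78), were not in the liver list but are genes that liver expresses. Each was highest on saline array 1, at -0.81 for *Cyp3a41* against -2.47 and -2.71 on the other saline arrays, and changed by -1.54 to -1.80 with E3. In the liver list itself 75 of 137 genes tested fell and 2 rose (24 and 0 with normexp). Saline array 1 was the highest of its group for 73 of the 75, and 65 fell without it. The summed level of the list was 78.5 to 140 on the saline arrays, 54.0 to 63.2 on the E2 2 hr arrays, and 57.2 to 85.8 on the E3 2 hr arrays. Defining markers moved as *Alb1* did: *Fgg* was above background on 0 of 3 E2 2 hr arrays and fell at least 132-fold, and *Apoa2* (-6.45), *Ambp* (-5.78), and *Ahsg* (-3.07) fell. Of the 75, 10 were also called with E3. What part liver RNA in the saline samples has in the falls of this list was not tested. If they had not been set aside, 18 of the 50 steepest falls would have been liver list genes.

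**Figure D5:**
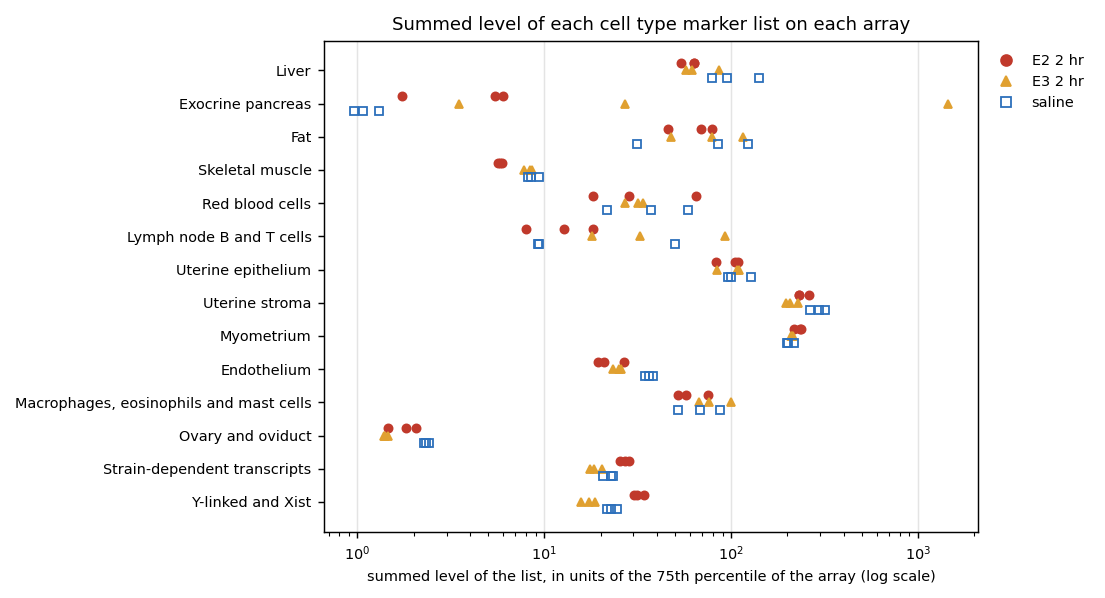
Summed level of each marker list on each array (horizontal axis, units of the 75th percentile of the array, log scale) for E2 2 hr, E3 2 hr, and saline, each with 3 arrays. The liver list spans 78.5 to 140 on saline and 54.0 to 63.2 on E2 2 hr, and the epithelial list overlaps between the groups.

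The epithelial list summed to 83 to 109 with E2 and 96 to 128 with saline (68.0 to 87.6 and 88.9 to 119 without *Krt7*), and the myometrial list to 217 to 238 and 200 to 217. Skeletal muscle transcripts summed to 5.66 to 5.96 against 8.22 to 9.42 (4.14 to 4.48 and 4.52 to 5.08 without *Tnni2*). Exocrine pancreas transcripts summed to 1.72 to 6.02 against 0.957 to 1.30, where the kallikrein *Klk1* was the only member called and carried the difference: without it the sums were 0.523 to 0.734 with E2 and 0.942 to 1.28 with saline. The defining markers *Ctrb1*, *Cpa1*, *Pnlip*, and *Amy2* were not called, with SEs of 1.89 to 3.59. The pancreas list summed to 3.47 to 1455 on the E3 2 hr arrays and 1.34 to 658 on the E2 24 hr arrays. The fit takes its spread from these arrays too, so the lack of a call says little here. *Cpa1* (-2.09), *Pnlip* (-2.72), and *Amy2* (-1.16) were lower on every E2 2 hr array than on any saline array, while *Ctrb1* (-0.30) overlapped. Fat, red blood cell, macrophage, and lymph node lists overlapped between the groups, and ovary and oviduct transcripts summed to 1.46 to 2.05 against 2.28 to 2.42 (1.35 to 1.98 and 1.96 to 2.07 without *Foxj1*). Each member left out was the one with the largest difference between the groups, a step added after the values were seen. *Nnt*, whose transcript is disrupted in C57BL/6J mice, changed by 0.03. Of 6 strain-dependent transcripts 0 were called, although their summed level was 25.4 to 28.3 with E2 and 20.6 to 23.4 with saline. The list of *Xist* and Y-linked genes, of which *Xist* was the only one tested and was not called (0.47 ± 0.10), summed to 30.02 to 34.22 and 21.56 to 24.38. The part of these lists in the results was not tested.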

How the data were processed

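Uterine RNA was labeled with Cy3 and hybridized to single-color Agilent 4 × 44 mouse arrays. The authors read spot signals with Agilent Feature Extraction 9.5. The deposited intensity values are its processed signals on a linear scale, after subtraction of background and removal of spatial trends. The deposited table of all samples held the same intensities (largest relative difference 0), so no scaling between arrays had been applied. Such scaling assumes that most probes do not change. No scanner or batch step by the authors is given in the sources used here.

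Control spots and 1893 spots with outlier flags were left out, repeated spots of a probe were averaged (43379 spots, 41174 probes), and the log2 intensity minus the log2 75th percentile of the array was computed from the deposited values. Probes that passed the background flag on 2 or more arrays of any group were kept (34776, of which 34766 could be tested). limma 3.58.1 in R 4.3.3 fitted 5 group means to 15 arrays (10 residual and 2.06 prior degrees of freedom). A call needed p under 0.001 and at least 2-fold, and p-values were adjusted by Benjamini-Hochberg over all probes tested. SDs rest on 3 arrays per group. SEs and p-values use a spread shared over all 15 arrays, 3 per group, and so include arrays outside the comparison. On simulated data for this comparison, with 34096 probes left unchanged, 98% of 100 probes changed by 3 on the log2 scale and 87% of 100 changed by 1.5 were recovered, with 10 false calls. The simulated noise was independent and held no shift of slide, scanner, strain, or collection time. It therefore gives no rate of false calls among the real ones.

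A gene counts by its brightest probe under the name in the array files, where 22951 probes (55.7%) matched RefSeq by accession. Named genes were 11 early transcripts of the study (*Sox8*, the other of its 12, was added after its values were seen), the 15 largest rises and falls outside the marker lists with both groups above background and no overlap, called members of 34 function lists (up to 8 each unless the list is given whole), and defining markers of 14 marker lists. Members and lists were chosen with earlier results of these data known. A fold is given as a bound where no array of a group was well above background, with each dim value raised to the lowest signal above background. Some list members are not reported here by name. Lists are described by counts and medians, with no set test. Same-numbered replicates were checked for pairing. Alternatives were normexp background correction (offset 50), other scalings, filters, and call rules, the 6 arrays alone, slide as a random block, the replicate block, and leaving out each array.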

Additional observations from a re-analysis of the deposited data

How the results depend on the processing

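Of 363 named or listed genes that were called, 0 changed direction under any alternative, and 229 kept their call under every alternative that gave them a value. The count of 7384 called probes stayed within 1.5 times under all but 2 alternatives. With normexp it was 3785 (1905 up, 1880 down), and with a p-value but no minimum change 14327 (6988 up, 7339 down). Leaving out each array gave 6757 to 7708 calls. The median change over all probes was -0.08, -0.14 with the percentile over probes above background on every array, and 0.01 with no scaling, and the share of calls that were upward ranged from 45.3% to 57.4% over those scalings. With normexp 91 of the 363 genes lost their call, and the 6 arrays alone lost 53. Among lists with 5 or more calls in a direction, normexp moved the falls of the liver list from 75 to 24 and the rises of transporters from 5 to 2 and the falls of activin and BMP genes from 5 to 3. Quantile normalization moved the rises of receptor coregulators from 7 to 4, and no scaling moved the falls of prostaglandin genes from 8 to 5. The cause was not tested. Among the genes of these 363 that are named above, those not called in at least 1 fit without 1 array were *Aars*, *Actn3*, *Bambi*, *Bcl6*, *Btc*, *Csf2*, *Cxcl16*, *Cyp26a1*, *Dusp16*, *Dusp2*, *Dusp6*, *Eif2s1*, *Erbb4*, *Fkbp4*, *Gm129*, *Hif1a*, *Hyou1*, *Krt23*, *Mmp15*, *Mvk*, *Ptch1*, *Ptger3*, *Ptgis*, *Ptgs1*, *Rara*, *Rdh10*, *Sfrp1*, *Slc1a1*, *Slc2a1*, *Sprr2b*, *Stra6*, *Tbxa2r*, *Trim61*, *Tubb6*, and *Wnt7b*. Another scaling between arrays also ended the calls of *Eif2b3*, *Eif3s1*, *Hsp90aa1*, *Igf1*, *Nrp2*, *Pold1*, *Pparbp*, *Rnd2*, and *Tnc*. Beyond these, the 6 arrays alone ended the calls of *Dkk1*, *Esm1*, *Has2*, *Hspa1a*, *Hspa4l*, *Il15*, *Mmp11*, *Slc2a3*, *Srf*, and *Wisp2*. Samples sharing a replicate number deviated with correlations of -0.07 to 0.10, against -0.21 to 0.11 for the other pairs. So few pairs cannot exclude a pairing, and samples were not paired in the main fit. The replicate block gave 7241 calls (8 of the 363 genes lost theirs). Slide as a random block gave 7411. The number of arrays and dim saline signals limit precision.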
